A study of Homo sapiens with 6 samples.

Results

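The hypoxia-inducible factor (HIF) regulators described here are 10 genes, taken by symbol from the 61860 gene rows of the deposited count and FPKM tables: the HIF-alpha subunits EPAS1 (HIF-2 alpha), HIF1A and HIF3A, the partner subunits ARNT and ARNT2, the ubiquitin ligase component VHL, the prolyl hydroxylases EGLN1, EGLN2 and EGLN3, and the asparaginyl hydroxylase HIF1AN. RNA came from 786-O, an established human line of clear cell renal cell carcinoma without functional VHL, and every library carried a stably expressed short hairpin RNA (shRNA). The label calls the cells epithelial. The 3 control libraries had a control shRNA and the 3 knockdown libraries one aimed at METTL3, which catalyses N6-methyladenosine formation on mRNA. The study compared these lines in work on renal cancer with high L-2-hydroxyglutarate, a metabolite that competes with the 2-oxoglutarate that prolyl hydroxylases need. The labels name a single METTL3 shRNA and no separate cultures, so p-values measure spread among these libraries alone, and it may be technical.

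HIF is a pair of basic helix-loop-helix PAS proteins, an alpha subunit joined to ARNT or ARNT2. When oxygen is available, EGLN enzymes hydroxylate prolines of the alpha subunit, VHL binds the hydroxylated protein and directs its ubiquitination, and HIF1AN (also called FIH) hydroxylates an asparagine that then no longer contacts the coactivators EP300 and CREBBP. Without functional VHL the alpha subunit is not removed by this route, and in clear cell renal carcinoma EPAS1 is the alpha subunit known for driving growth. The 786-O line is known for making EPAS1 protein and no functional HIF1A protein. EGLN3 and, to a lesser degree, EGLN1 are themselves known HIF target genes.

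Total counts lay between 100534896 and 103624456. Values per library are given in the order A, B, C of the column names throughout. METTL3, the gene the hairpin targets, stood at 22.9, 24.9 and 25.04 FPKM in the control libraries and at 7.08, 6.46 and 8.01 FPKM in the knockdown libraries, so the groups did not overlap. METTL3 fell by 71.2% (edgeR log2 fold change −1.80 with SE 0.08, adjusted p = 1.45e-07). The knockdown columns carry a construct number that no label explains, and they were taken as the knockdown group by elimination. Keratins KRT8 and KRT18 (132 and 98.8 FPKM in the control mean), the renal factor PAX8 (77.9) and the brush border enzyme gene GGT1 (173) were present, while the epithelial genes EPCAM (0.483) and CDH1 (0.13) and the proximal tubule genes LRP2 (0.0033) and SLC34A1 (0.027) were at or near 0. In both groups 4 of 6 epithelial and 5 of 8 renal tubule markers reached 1 FPKM. The mesenchymal filament gene VIM rose from a mean of 956 to 1792 FPKM (edgeR log2 fold change 1.02 with SE 0.15, adjusted p = 3.74e-04). Of 5 leukocyte markers only CD68, a lysosomal protein, exceeded 1 FPKM, and the summed level of the 5 was 40.4 to 47.7 FPKM in the control and 76.6 to 85.2 in the knockdown libraries, with CD3E at 0 and PTPRC at a mean of 0.01 FPKM or less. Of 4 endothelial and 4 fibroblast markers 0 exceeded 1 FPKM, with summed levels of at most 0.07 and 1.62. The part of VIM and CD68 in the results was not tested. Being bulk measurements of a line, the values cannot tell fewer cells with a transcript from less of it per cell.

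The DNA just upstream of a RefSeq transcription start is shown for 3 of the genes because they cover the outcomes below. These are a hydroxylase gene that rose, an alpha-subunit gene that fell and an alpha-subunit gene whose change did not pass the test. Each is the stretch before that start (GRCh38.p14, gene strand, 5′ to 3′) that holds no annotated exon. The RefSeq start can differ from the end of the GENCODE gene span given below. The EGLN3 and EPAS1 stretches lie inside those spans, and the HIF1A stretch ends just before its span. Capitals mark the letters GCGTG, which together with ACGTG form the core that HIF dimers bind.
EGLN3, chr14:33951082-33951324, minus strand: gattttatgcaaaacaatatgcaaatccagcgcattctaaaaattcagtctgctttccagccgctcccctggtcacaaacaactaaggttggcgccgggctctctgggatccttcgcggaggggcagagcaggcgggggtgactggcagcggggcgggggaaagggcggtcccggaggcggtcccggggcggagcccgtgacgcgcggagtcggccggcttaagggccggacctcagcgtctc
EPAS1, chr2:46297157-46297401, plus strand: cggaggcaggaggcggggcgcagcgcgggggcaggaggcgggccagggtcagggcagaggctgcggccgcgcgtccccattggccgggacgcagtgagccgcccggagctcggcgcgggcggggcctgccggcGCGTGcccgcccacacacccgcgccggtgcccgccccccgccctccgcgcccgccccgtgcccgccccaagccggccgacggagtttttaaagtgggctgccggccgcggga
HIF1A, chr14:61695263-61695512, plus strand: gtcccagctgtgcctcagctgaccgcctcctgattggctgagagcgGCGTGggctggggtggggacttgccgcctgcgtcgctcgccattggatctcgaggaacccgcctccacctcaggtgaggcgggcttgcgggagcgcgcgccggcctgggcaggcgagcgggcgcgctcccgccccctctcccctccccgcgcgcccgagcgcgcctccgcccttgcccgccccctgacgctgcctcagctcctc
Searched on both strands over the 250 bases before the start, the EGLN3 window held neither ACGTG nor GCGTG, and the EPAS1 and first HIF1A windows held 1 GCGTG each, at positions −117 and −204 from the start. Of 35116 promoter windows of that length in the RefSeq table, 18.5% held ACGTG, 32.2% GCGTG and 43.2% either. The second HIF1A window held neither. Among the other genes, the first EGLN2 window held CACGTG, which reads ACGTG on both strands, EGLN1 held 1 ACGTG, the first HIF3A window held 3 GCGTG, and ARNT and HIF1AN held neither. A match is a description of these letters and not a binding site. VHL and ARNT2 were not matched.

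By level per transcript length, EPAS1 and EGLN3 stood far above the rest. In the control mean the order was EPAS1 at 153 ± 13.8 FPKM, EGLN3 at 84.3 ± 17.05, EGLN2 at 28.5 ± 1.97, EGLN1 at 15.6 ± 1.12, HIF1A at 11.03 ± 2.10, ARNT at 10.5 ± 0.84, VHL at 10.4 ± 1.06, HIF1AN at 9.23 ± 0.61 and ARNT2 at 2.98 ± 0.27 (SD, n = 3 libraries each). HIF1A, ARNT, VHL and HIF1AN overlapped from neighbour to neighbour in that order, and the other neighbours did not. In the knockdown mean EGLN3 (165 ± 16.3 FPKM) and EPAS1 (165 ± 16.2) overlapped at the top, and HIF1A (7.08 ± 1.48) had moved below VHL, ARNT and HIF1AN, although its range still met that of HIF1AN (SD, n = 3 each). Over all 6 libraries, 96.2% of the 18740 tested genes had a lower mean FPKM than EPAS1 and 95.03% a lower one than EGLN3, against 61.5% for HIF1A and 64.4% for VHL.

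**Figure D1:**
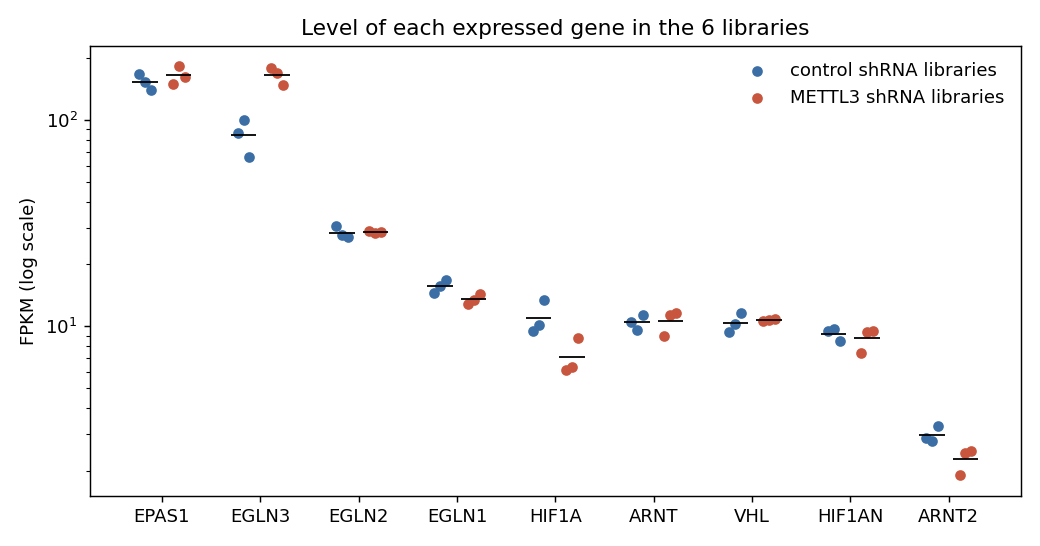
Deposited FPKM values of the 9 genes with counts, on a log axis, with 1 point per library (control shRNA in blue, METTL3 shRNA in red) and a black line at each group mean. EPAS1 lies above 139 in every library, EGLN3 rises from 66.2 to 100.07 in the control libraries to 147 to 179 in the knockdown libraries, and the HIF1A points of the groups do not overlap.

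Of the alpha subunits, HIF1A fell. HIF1A (ENSG00000100644; chromosome 14, 61695513 to 61748259, plus strand, 15 exons in its reference transcript) received 1988, 2046 and 2642 counts in the control libraries and 1156, 1174 and 1587 in the knockdown libraries. In FPKM these were 9.50, 10.17 and 13.4 against 6.12, 6.34 and 8.79. Library C was the highest of each group, and the highest knockdown value lay below the lowest control value. It fell by 35.5% (edgeR log2 fold change −0.63 with SE 0.12, adjusted p = 0.0016). It ran from −0.77 without knockdown library C to −0.52 without control library C, with the call kept in all 6 fits without 1 library. It was lost in limma on log2(FPKM + 1) without a filter (adjusted p = 0.0879).

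EPAS1 (ENSG00000116016; chromosome 2, 46293667 to 46386703, plus strand, 16 exons) did not change past the test. Its counts were 60228, 55035 and 48386 in the control libraries and 51465, 60992 and 59810 in the knockdown libraries. Scaled by the TMM-adjusted library total to counts per 1e6 (CPM), these gave 578.5, 516 and 439.5 CPM against 545, 628 and 597 CPM, so control library A exceeded knockdown library A and the groups overlapped. The log2 fold change was 0.21 (SE 0.10, 95% interval −0.02 to 0.43, edgeR adjusted p = 0.147). That interval takes in 0.

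The FPKM ratio of EPAS1 to HIF1A was 17.6, 15.04 and 10.4 in the control libraries and 24.5, 28.7 and 18.4 in the knockdown libraries. The lowest knockdown ratio was only slightly above the highest control ratio. HIF3A (ENSG00000124440, chromosome 19), an alpha subunit whose isoforms include inhibitors of HIF, was listed at 0 FPKM throughout, with 1 count in knockdown library A and 0 in the other 5 libraries. A count of 0 allows up to 3 counts, or 0.027 to 0.031 CPM in the 5 libraries at 0 (counting error only), and HIF3A was not tested.

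The FPKM and the counts of a gene differ by a length. Dividing counts by FPKM gives the transcript length that the authors' scaling used, which can follow the estimated mix of isoforms. For HIF1A this implied length was 1916 to 2019 bases in the control libraries and 1779 to 1879 bases in the knockdown libraries, 7.02% shorter without overlap. Knockdown lengths below all control lengths were found for 7.68% of 9166 genes with a mean of at least 5 FPKM, and for 1 of the 8 members compared, while the ratio of knockdown to control length was 1.00 for the median gene. The implied length of HIF1AN varied most among the members, by 20.5% between its shortest and longest library, without separating the groups. This comparison was made after the values were seen and has no test.

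Of the partner subunits, ARNT2 fell and ARNT did not pass the test. ARNT (ENSG00000143437; chromosome 1, 150809705 to 150876768, minus strand, 22 exons) is the usual partner of HIF-alpha. It had 40.9, 37.01 and 42.4 CPM in the control libraries and 38.6, 47.2 and 45.6 CPM in the knockdown libraries. Knockdown library A lay among the control libraries, and the difference did not pass (log2 fold change 0.13, SE 0.09, 95% interval −0.07 to 0.32, edgeR adjusted p = 0.304).

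ARNT2 (ENSG00000172379; chromosome 15, 80404350 to 80597937, plus strand, 20 exons), a related partner subunit best known from neurons, had a lower level. Its values were 16.95, 15.5 and 17.2 CPM in the control libraries against 12.3, 13.8 and 13.9 CPM in the knockdown libraries, without overlap. It fell by 19.5% (edgeR log2 fold change −0.31 with SE 0.09, adjusted p = 0.0142). Without knockdown library A, its lowest library, ARNT2 stood at −0.26 and just missed the threshold (edgeR adjusted p = 0.0519), and limma on log2 FPKM gave adjusted p values of 0.0524 to 0.157. The ratio of ARNT to ARNT2 in FPKM was 3.64, 3.48 and 3.44 in the control libraries and 4.74, 4.66 and 4.66 in the knockdown libraries.

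VHL did not change past the test. VHL (ENSG00000134086; chromosome 3, 10141008 to 10152220, plus strand, 3 exons) had 34.3, 36.4 and 38.9 CPM in the control libraries and 41.05, 39.2 and 39.2 CPM in the knockdown libraries. All knockdown values lay above all control values, by less than 1 CPM at the nearest, with a small difference (log2 fold change 0.12, SE 0.08, 95% interval −0.04 to 0.29, edgeR adjusted p = 0.225). In FPKM the groups overlapped, with 9.44 to 11.6 in the control libraries and 10.7 to 10.8 in the knockdown libraries. The count says that VHL RNA is present, and nothing of whether it encodes a working protein.

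Among the prolyl hydroxylases EGLN3, which encodes PHD3 and is itself a HIF target, rose to about the level of EPAS1, while EGLN1 and EGLN2 did not change past the test. EGLN3 (ENSG00000129521; chromosome 14, 33924231 to 34462774, minus strand, 5 exons) received 19277, 20548 and 13770 counts in the control libraries and 35230, 34869 and 29248 in the knockdown libraries. In FPKM these were 86.5, 100.07 and 66.2 against 179, 168 and 147, and library C was the lowest of each group. The rise was 2.03-fold (edgeR log2 fold change 1.03 with SE 0.14, adjusted p = 2.61e-04). It was 0.85 without control library C and at most 1.14, without control library B, and the call held in all 6 such fits.

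EGLN1 (ENSG00000135766; chromosome 1, 231363751 to 231425044, minus strand, 5 exons), which encodes PHD2, the main oxygen-sensing hydroxylase of most cells, had 50.1, 55.5 and 56.4 CPM in the control libraries and 48.3, 50.4 and 51.2 CPM in the knockdown libraries. Only control library A reached into the knockdown range, and the difference did not pass (log2 fold change −0.11, SE 0.08, 95% interval −0.28 to 0.05, edgeR adjusted p = 0.276). In FPKM EGLN1 did not overlap, at 14.5, 15.8 and 16.7 against 12.8, 13.5 and 14.3, and with scaling by library size alone it stood at −0.22 (edgeR adjusted p = 0.0625). The median log2 fold change of all tested genes was itself −0.113 with library size alone and −0.0943 to −0.115 in filtered FPKM.

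EGLN2 (ENSG00000269858; chromosome 19, 40798996 to 40808433, plus strand, 5 exons), which encodes PHD1, had 53.3, 47.4 and 43.8 CPM in the control libraries and 53.8, 51.8 and 50.8 CPM in the knockdown libraries. Control library A lay within the knockdown range, and the log2 fold change of 0.11 did not pass (SE 0.08, 95% interval −0.07 to 0.29, edgeR adjusted p = 0.317). In FPKM the group means of EGLN2 were nearly equal, at 28.5 ± 1.97 and 28.6 ± 0.28 (SD, n = 3 each).

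EGLN3 made up most of the summed EGLN level in every library. The sum was 132, 143 and 110 FPKM in the control libraries and 221, 210 and 190 FPKM in the knockdown libraries. EGLN3 made up 65.7%, 69.8% and 60.2% of it in the control libraries and 81.1%, 80.1% and 77.4% in the knockdown libraries, while the share of EGLN1 went from 12.4% ± 2.42 to 6.58% ± 0.88 (SD, n = 3 each). The ratio of EGLN3 to EPAS1 was 0.518, 0.654 and 0.475 in the control libraries and 1.20, 0.926 and 0.909 in the knockdown libraries. These ratios and shares are descriptions with no test.

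**Figure D2:**
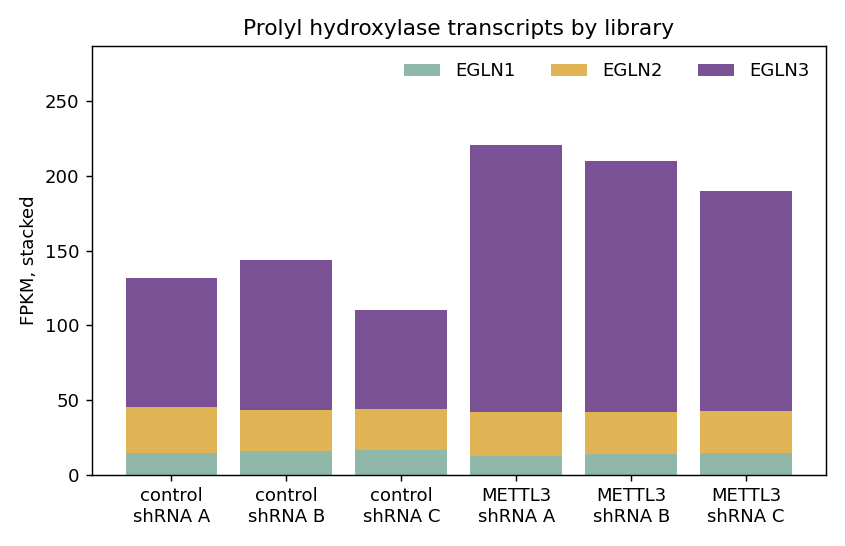
Stacked FPKM of EGLN1, EGLN2 and EGLN3 in each library, as bars from 0. The EGLN3 part grows from 66.2 to 100.07 in the control libraries to 147 to 179 in the METTL3 shRNA libraries, while the parts of EGLN1 and EGLN2 stay between 12.8 and 30.8 FPKM in all 6.

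HIF1AN (ENSG00000166135; chromosome 10, 100529072 to 100559998, plus strand, 8 exons) had the smallest log2 fold change of the members tested. It had 58.8, 57.5 and 59.3 CPM in the control libraries and 57.0, 63.1 and 61.3 CPM in the knockdown libraries, so that knockdown library A was the lowest of all. That change was 0.05 (SE 0.07, 95% interval −0.11 to 0.20, edgeR adjusted p = 0.656), and it turned to −0.06 with scaling by library size alone.

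In all, 9 of the 10 members passed the filter on low counts. Of these 1 was higher, EGLN3, against 16.5% of all tested genes, and 2 were lower, HIF1A and ARNT2, against 16.9%. The 3 calls made up 33.3% of the members tested, beside 33.5% of all tested genes, so that the share of calls was at the background. In CPM the groups did not overlap for 4 of the 9, a share of 44.4% against 47.4% of all genes. The size of the EGLN3 rise exceeded the absolute log2 fold change of 95.2% of all tested genes, that of HIF1A exceeded 85.6% and that of ARNT2 59.5%. The 6 members that did not pass had absolute log2 fold changes of 0.0463 to 0.206, where the median of all genes was 0.247.

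**Figure D3:**
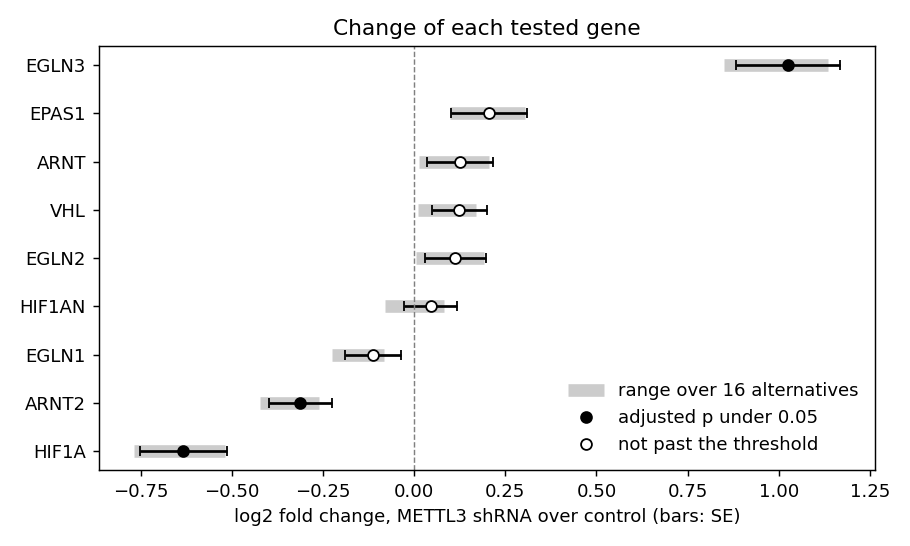
Log2 fold change (METTL3 shRNA over control) of the 9 tested genes from edgeR, with SE bars, filled points for those past an adjusted p of 0.05, and grey bands for the range over 16 alternative analyses. EGLN3 (1.03), ARNT2 (−0.31) and HIF1A (−0.63) pass the threshold. Only the grey band of HIF1AN, itself not past the threshold, crosses 0, and those of ARNT, VHL and EGLN2 reach close to it. All alternatives use the same libraries, so a kept sign is no further evidence of a direction.

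Some exons of these genes are shared with other annotated genes, which makes their counts less certain, since the use of strand in counting was not given in the sources used here. EGLN2 shares exons with the read-through gene RAB4B-EGLN2, which held 46, 54 and 38 counts in the control libraries and 33, 20 and 10 in the knockdown libraries, against at least 4827 for EGLN2. HIF1A overlaps the locus AL137129.1 on its own strand and HIF1A-AS1 on the opposite strand, which held at most 8 counts in a library. ARNT2 overlaps MIR5572 on its own strand and 2 loci on the opposite strand. HIF1AN overlaps NDUFB8 and METTL3 overlaps TOX4, both on the opposite strand. EPAS1, EGLN1, EGLN3, ARNT and VHL overlap no other exon in GENCODE 29.

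Other genes of the pathway were taken as lists. Of 10 genes of the VHL ligase and its regulators, 0 rose and 2 fell, beside 16.9% lower among all genes, and the median log2 fold change was −0.14 against −0.00297 for all genes. CUL2, the cullin scaffold, fell from 17.2 ± 0.89 to 12.2 ± 0.62 FPKM (SD, n = 3 each; edgeR log2 fold change −0.39 with SE 0.07, adjusted p = 0.0014), and the call held in all 6 fits without 1 library. ELOB, an elongin adaptor, fell by 0.26 on the log2 scale (SE 0.09, edgeR adjusted p = 0.0417), a call lost in 5 of 6 such fits, all but that without knockdown library A (0.0521 to 0.168). ELOB overlaps SRRM2 on the opposite strand. Its partner elongin ELOC (−0.15) and NEDD8 (−0.14), the modifier that activates cullins, did not pass. With scaling by library size alone 6 of the 10 were lower, where the median of all genes had itself shifted to −0.113.

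In the coactivator list, which also holds the CITED inhibitors, 0 of 9 tested rose and 3 fell (median −0.15), beside 16.5% higher and 16.9% lower among all genes. CITED1 (16 counts or fewer per library) was not tested. CDK8, a kinase of the Mediator complex, fell from 11.1 ± 0.84 to 7.61 ± 0.87 FPKM (SD, n = 3 each; edgeR log2 fold change −0.41 with SE 0.08, adjusted p = 0.0019). CREBBP, an acetyltransferase that binds HIF-alpha (−0.34, SE 0.11), and CITED2, which competes with HIF-alpha for it (−0.30, SE 0.09), fell as well. Each kept its call in only 2 of the 6 fits without 1 library, those without control B or knockdown C for CREBBP and without control C or knockdown C for CITED2, and the edgeR adjusted p was 0.055 to 0.0916 in the others. EP300 stood at −0.26 (edgeR adjusted p = 0.0816) and passed without knockdown library C (0.0218), and KAT5 was at −0.00041.

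Of 9 tested relatives of HIF with a PAS domain, 0 rose and 2 fell (median −0.08), beside 16.5% and 16.9% of all genes. NPAS1, a neuronal factor, fell from 2.56 ± 0.41 to 1.56 ± 0.17 FPKM (SD, n = 3 each; edgeR log2 fold change −0.58 with SE 0.16, adjusted p = 0.0122), a call lost without knockdown library B (0.0611). BMAL1, the clock partner of CLOCK, fell by 0.26 (SE 0.09, edgeR adjusted p = 0.0391), and that call was kept only without knockdown library C (0.0665 to 0.162 in the other 5 fits). The dioxin receptor AHR (−0.08), which also pairs with ARNT, and NPAS2 (−0.05) did not pass, and SIM2 and NPAS4 were too low to test.

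Genes for the turnover and folding of HIF-alpha and EGLN proteins went both ways, with 4 of 16 higher, 3 lower and a median of 0.0015, beside 16.5% of all genes higher and 16.9% lower. RACK1, a ribosomal scaffold known to promote HIF1A degradation, rose from 2285 ± 161 to 3292 ± 329 FPKM (SD, n = 3 each; edgeR log2 fold change 0.65 with SE 0.11, adjusted p = 9.38e-04), and WSB1, a ubiquitin ligase adaptor for VHL, rose by 0.59 (SE 0.08). SIAH2, a ligase that targets EGLN proteins (0.30, SE 0.09), and FKBP8, a binding partner of EGLN1 (0.25, SE 0.09), rose too. The call of SIAH2 was lost without control A or knockdown A (edgeR adjusted p between 0.0576 and 0.0781), that of FKBP8 in all fits but those without control A or knockdown C (0.102 to 0.137), and both were lost with scaling by library size alone. SART1 (−0.31, SE 0.09), PTGES3 (−0.24, SE 0.08), a co-chaperone of HSP90, and SENP1 (−0.29, SE 0.10), a SUMO protease, fell, and SENP1 is named because it completes the 3. Each of these lost its call in at least 2 of the 6 fits without 1 library (without control A or knockdown B for SART1, in all but those without control A or knockdown A for PTGES3, in all but that without knockdown C for SENP1), with edgeR adjusted p between 0.0537 and 0.174. The abundant chaperone HSP90AB1 (0.09) and the deubiquitinase UCHL1 (−0.0076) did not pass. RACK1, FKBP8, SIAH2, SENP1, UCHL1, EP300, KAT5, CITED1, NEDD8, AHR, CLOCK and NPAS2 share exons with genes on the opposite strand. RACK1, EP300, CITED1, NEDD8 and AHR also share exons with genes on their own strand.

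Known HIF targets beyond EGLN3 and EGLN1 were counted as readouts, and since some were known from these libraries their direction is no independent evidence. Of 11 tested targets mainly of HIF-1, 3 rose and 0 fell (median 0.11), beside 16.5% higher and 16.9% lower over all genes. The 3 were ANKRD37 (0.68, SE 0.17), the histone demethylase KDM3A (0.39, SE 0.07) and the collagen hydroxylase P4HA1 (0.39, SE 0.08), each in all 6 fits without 1 library. The glycolytic genes ALDOA (0.26), ENO1 (−0.20) and LDHA (−0.09) did not pass, although ENO1 was lower with library size alone (−0.31, edgeR adjusted p = 0.006), and CA9, a target that depends on HIF1A, had at most 2 counts in a library.

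Of 14 targets of HIF-2 or of both factors, 5 rose and 0 fell (median 0.27), with the same 16.5% and 16.9% over all genes. VEGFA, the angiogenic growth factor, rose from 593 ± 72.1 to 811 ± 108 FPKM (SD, n = 3 each; edgeR log2 fold change 0.58 with SE 0.13, adjusted p = 0.0045). The growth inhibitor DDIT4 rose by 0.47 (SE 0.14), a call lost without control C, knockdown A or knockdown B (adjusted p between 0.0787 and 0.0978 in edgeR), and the others were HILPDA, CA12 and SLC2A1 (1.86, 1.41 and 0.56). NDRG1 (0.27), a stress-response gene, did not pass, and 8 of the 14 rose without knockdown library C. That fit called 34.4% of all tested genes in either direction, against 33.5% with all libraries. DDIT4, SLC2A1, VEGFA, ANKRD37, P4HA1, ALDOA, ENO1 and CA9 share exons with genes on the opposite strand. HILPDA, SLC2A1 and ALDOA share exons with others on their own strand.

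**Figure D4:**
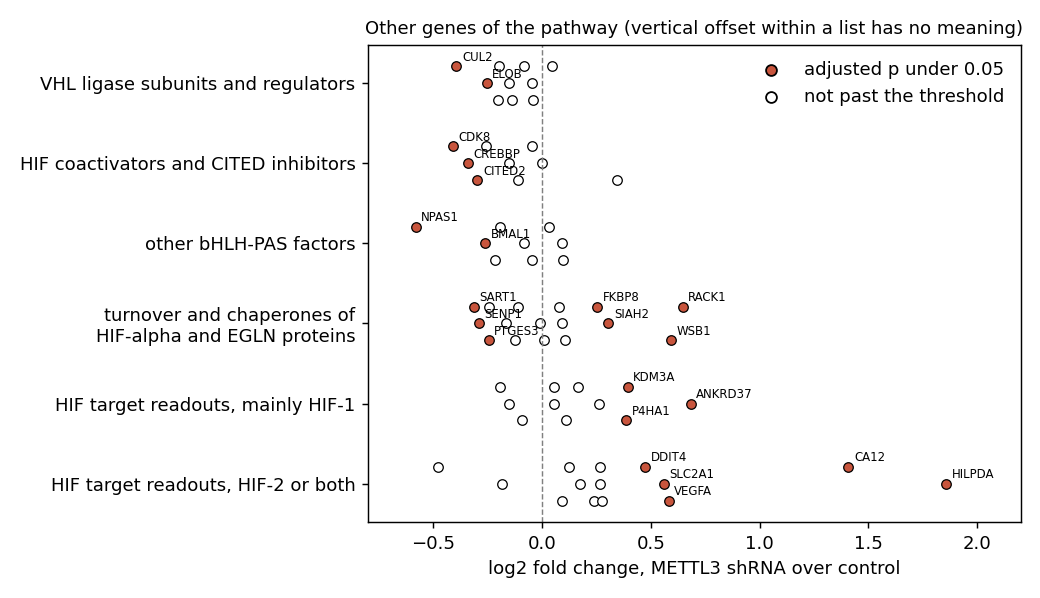
Log2 fold change (METTL3 shRNA over control) of the tested genes in the 6 lists of other pathway genes, filled and named where the edgeR adjusted p was under 0.05. In the VHL ligase, coactivator and bHLH-PAS lists all filled points lie below 0 (2, 3 and 2 genes), in the turnover list they lie on both sides, and in both target lists all filled points lie above 0 (3 and 5 genes).

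For EPAS1 and EGLN3, the genes most alike over the 6 libraries were found by the root mean square difference of log2 CPM, centred per gene, among 10940 genes with a mean of at least 5 CPM. The nearest to EPAS1 was PFKFB3, a glycolytic regulator (difference 0.0253, log2 fold change 0.20), followed by DNAAF9 (0.0381) and ARHGEF28 (0.0423). The nearest to EGLN3 was TMEM141, a membrane protein (difference 0.0484, log2 fold change 1.02), followed by the unnamed locus ENSG00000281571 (0.062). TMEM141 shares exons with another gene. All of these share the same 6 libraries and their group difference, so the likeness is a description.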

How the data were processed

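Ribosomal RNA-depleted total RNA of 3 control and 3 METTL3 shRNA libraries of 786-O cells was sequenced on a DNBSEQ platform, per the labels' protocols. Tools and build named in the submitters' processing notes are GRCh38, Salmon and STAR 2.7.10b, with annotation release and strand handling not given in the sources used here. The authors deposited whole-number counts per gene and FPKM values, used as deposited for tests and for levels. Column letters are not tied to replicate numbers, and there were 0 further columns of values.

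Counts were filtered with filterByExpr (18740 genes left), TMM-scaled and tested with the edgeR 4.0.16 quasi-likelihood test (R 4.3.3, two-sided, Benjamini-Hochberg at 0.05). SE came from the F statistic, and intervals from it with the fit's degrees of freedom. On simulated counts (18478 genes) the test found 8% of genes changed 1.25-fold and 56% of those changed 1.5-fold. It found 72% at 2-fold and 92% at 4-fold, and 8.06% of its calls were unchanged genes, above the 5% aimed at. Far fewer genes were changed there than the 33.5% called in the data, which makes the adjusted threshold stricter. These rates therefore do not carry over to the test on the data. Libraries of a group differed beyond counting noise (chi-square 16.5 to 62.8 per degree of freedom). Positions come from GENCODE 29, which held 58308 of the identifiers, and upstream sequences from RefSeq, matched for 8 of 10 members. Symbols repeated in the table (1292 rows) were named by identifier.

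The members and lists were chosen with earlier results of these data known. Named in each list were the genes past the threshold (if over 6, those of smallest p) and the 3 of highest FPKM, and some of these are not reported here. Alternatives were DESeq2-type size factors, library size alone, DESeq2 1.42.0, limma-voom (limma 3.58.1), no filter, a minimum of 1 CPM in 3 libraries, the FPKM table in limma with a pseudocount of 1 or 0.1 (minimum 0.5 FPKM in 3 libraries, or unfiltered with 1), a block for the column letter, and leaving out each library.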

Additional observations from a re-analysis of the deposited data

How the results depend on the processing

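EGLN3 passed in all 16 alternatives, HIF1A in 15 and ARNT2 in 12, and the other 6 tested members in 0. The number of members higher was 1 in every alternative. The number lower was 1 with limma on log2(FPKM + 1) and on log2(FPKM + 0.1), where ARNT2 just missed (limma adjusted p = 0.0524 and 0.0552). It was 0 with limma on log2(FPKM + 1) without a filter (limma adjusted p for HIF1A 0.0879, for ARNT2 0.157). In the fits without 1 library it was 1 to 2. Why the unfiltered limma fit lost both genes was not tested, and edgeR without a filter kept both. Scaling by library size alone gave a median of −0.113 over all genes, and 29.6% of called genes were then higher in place of 49.4%, and FPKM fits gave 29.7% to 31.4%. With library size, the turnover list had 2 higher and 6 lower, and in FPKM the VHL ligase list had 7 lower with a filter and 1 without. Unfiltered FPKM left 1 gene of the coactivator list, 0 bHLH-PAS factors, 1 HIF-1 target and 3 HIF-2 targets. Of all tested genes, 35.8% were called with library size, 35.1% to 35.3% in filtered FPKM and 10.4% in unfiltered FPKM. The main fit called 33.5%. In the filtered FPKM fits CREBBP, SIAH2, FKBP8, SENP1, KDM3A and DDIT4 also missed the threshold (limma adjusted p 0.0502 to 0.277), and in DESeq2 ALDOA was higher and ENO1 lower past it. Without 1 library, the VHL ligase list had 1 to 2 genes lower and the coactivator list 1 to 4. The bHLH-PAS list had 0 to 2 lower and the turnover list 0 to 4. In the same fits 2 to 4 turnover genes, 3 to 4 HIF-1 targets and 4 to 8 HIF-2 targets were higher. The share of all tested genes called in them ran from 21.0% (without knockdown library B) to 34.4% (without knockdown library C). List counts are to be read beside that share. Rescaling FPKM to a common total moved the control mean of EPAS1 from 153 to 167, past its SD. The FPKM totals were 890874 to 937216 in the control libraries and 951583 to 1032147 in the knockdown libraries. The 167 is therefore not to be set beside the knockdown mean of 165, which is not rescaled.

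Whether the column letters pair the libraries was not settled. Correlations of deviations were −0.018, −0.049 and 0.17 for A, B and C, beside −0.12 to 0.14 between unlike letters. With the letter as a replicate block, 1 member was higher and 2 were lower, as without it, all called genes numbered 6985 against 6270, and 8 targets of HIF-2 or both rose against 5. At these totals, counting error limits mainly HIF3A, CA9, CITED1, SIM2 and NPAS4 (16 counts or fewer).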
